A study of Rattus norvegicus with 6 samples.

Results

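The genes of the WNT pathway were followed in the vestibular epithelium of the rat, the sheet of sensory hair cells (HCs) and supporting cells that reports head movement. The set held every gene of the table whose symbol belongs to the numbered families Wnt, Fzd, Sfrp, Dkk, Rspo, Lgr, Axin and Dvl, together with Lrp5, Lrp6, Lef1, Tcf7, Tcf7l1, Tcf7l2, Ctnnb1, Apc, Wif1 and Rnf43. It came to 58 of the 32883 genes of the table, and the rule read symbols only. Axin1 and Znrf3 were not analysed here. RNA was taken from 3 control rats, which drank plain water, and from 3 rats whose drinking water held 3,3'-iminodipropionitrile (IDPN), a nitrile toxic to HCs, at 20 mM for 4 weeks (IDPN-4wk). All 6 animals were adult male Long-Evans rats, and each library came from the 2 utricles and 6 cristae of a single animal. The comparison asked which transcripts of the epithelium differ after subchronic ototoxic exposure. Libraries were whole tissue, so that fewer cells of a type and less RNA per cell cannot be told apart.

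WNT proteins are secreted, lipid-modified ligands that bind Frizzled receptors on the cell surface. With the coreceptors LRP5 and LRP6 they keep beta-catenin from being degraded, and beta-catenin then enters the nucleus and acts with TCF and LEF factors on target genes. Without LRP5 and LRP6, WNT ligands also act on cell polarity and cell movement. R-spondins bind LGR receptors and protect Frizzled receptors from the ligases RNF43 and ZNRF3, whereas SFRP, DKK and WIF1 proteins are secreted antagonists. In the inner ear the pathway is known for its part in otic development, in the orientation of hair bundles and in the proliferation of supporting cells, some of which carry Lgr5.

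Libraries held from 13358678 to 18561991 counts, and the members took from 0.228% to 0.255% of them. Values are given as CPM, the counts of a gene per 1000000 counts of its library, with library sizes adjusted by the trimmed mean of M values (TMM). The filter on low counts kept 14352 genes, 47 of the 58 members among them. The labelled tissue carried the markers of its cells in every library, with Myo6, a motor protein of HCs, at 340.2 CPM or more and Otog, which encodes otogelin of the membranes over supporting cells, at 2740.4 CPM or more. Pearson correlations of log2 CPM across genes were from 0.987 to 0.990 within groups and from 0.965 to 0.977 between groups.

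Of the 47 members tested, 8 were downregulated in IDPN-4wk, where 6.62% of all genes tested were, and 1 was upregulated, where 3.09% of all genes tested were. A call needed a Benjamini-Hochberg adjusted p (Padj) under 0.05 in the quasi-likelihood test of edgeR and a fold change over 1.5. The downregulated members were the ligands Wnt3, Wnt5b and Wnt7a, the R-spondin Rspo3, the R-spondin receptor Lgr6, the secreted antagonists Sfrp5 and Sfrp4 and the nuclear factor Lef1. Wnt2b, another ligand, was the upregulated member. In addition Fzd2 had Padj under 0.05 at a fold change below the threshold, as had 9.64% of all genes tested, in either direction. The median log2-Fold change of the 47 members was 0.01, beside 0.02 for all genes tested, with 20 members negative and 27 positive. The libraries of the groups did not overlap in 17 of the 47 members, 10 lower and 7 higher in IDPN-4wk, and in 37.8% of all genes tested. The share of members without overlap was therefore close to that of all genes. An unadjusted p under 0.05 without a call was found in 10 members, Fzd2 among them, and in 23.3% of all genes tested.

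**Figure D1:**
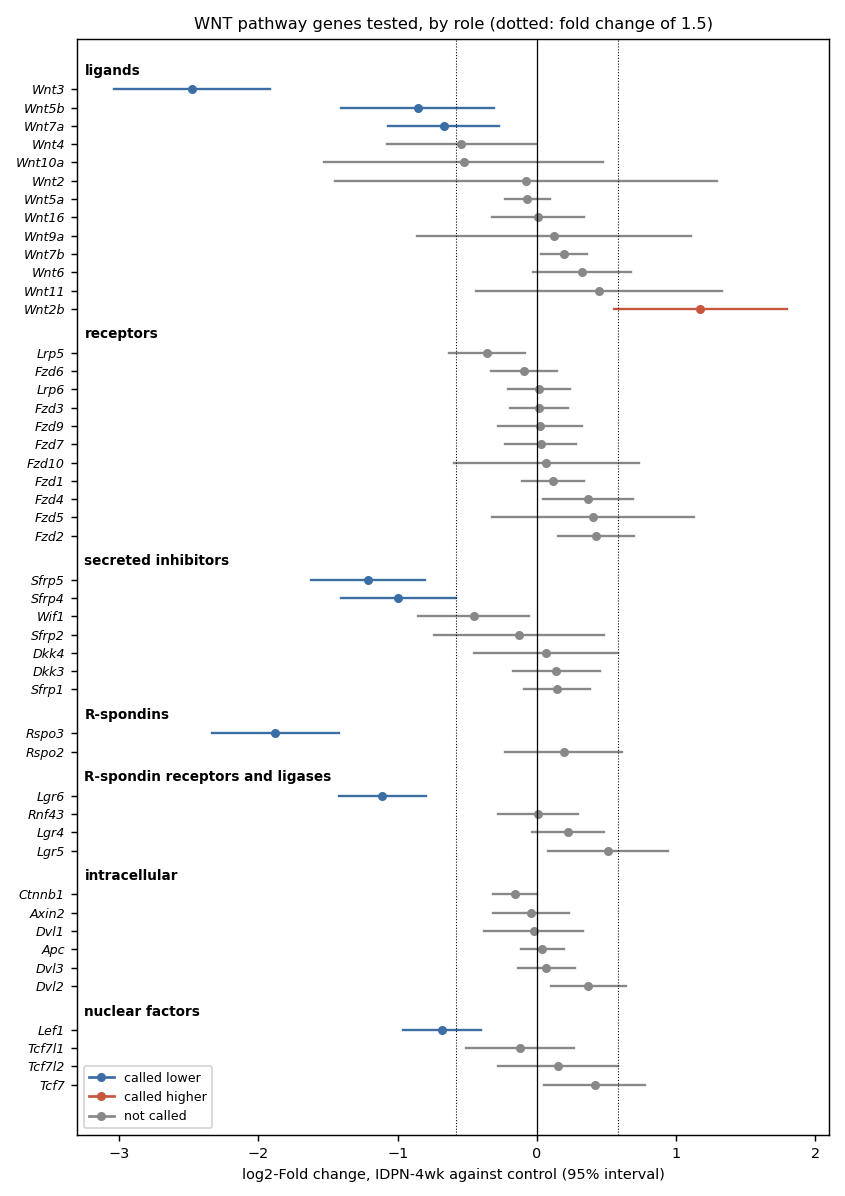
log2-Fold change (IDPN-4wk against control, 3 libraries each) of the 47 WNT pathway genes tested, grouped by role, with 95% intervals from edgeR as bars and dotted lines at a fold change of 1.5. Wnt3 at -2.48 and Rspo3 at -1.88 lie farthest from 0, and Wnt2b at 1.17 is the called gene on the right. No Frizzled or LRP gene and no gene of the intracellular group was called.

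The promoters of the members were read from the RefSeq table of build GRCr8, which gave a single entry for 42 of the 58. Over the 250 bases before the annotated start, the letters CTTTGAT and CTTTGAA, which belong to the motif of TCF and LEF factors, were searched on both strands. The motifs share their first 6 letters and cannot stand at the same place. They occurred in 3 of the 42 members, Axin2, Dkk1 and Wnt8a, and in 7.54% of the 24206 promoters of the table (4.93% of the 9660 promoters of genes tested). They were in 0 of 6 downregulated members that had an entry and not in that of Wnt2b. The sequences printed here are those of Axin2 (chr10:94398535-94398784, plus strand), which holds the motif and was not called, of the downregulated members with the largest differences, Wnt3 (chr10:89179974-89180223, plus strand) and Rspo3 (chr1:30112279-30112528, plus strand), and of the upregulated Wnt2b (chr2:195156946-195157195, minus strand). They are written along the gene, with motif letters in capitals.
Axin2: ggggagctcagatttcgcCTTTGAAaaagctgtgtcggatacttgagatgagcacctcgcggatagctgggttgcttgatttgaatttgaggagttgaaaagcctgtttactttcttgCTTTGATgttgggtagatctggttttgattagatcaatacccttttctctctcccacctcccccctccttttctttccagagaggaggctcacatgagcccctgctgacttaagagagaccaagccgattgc
Wnt3: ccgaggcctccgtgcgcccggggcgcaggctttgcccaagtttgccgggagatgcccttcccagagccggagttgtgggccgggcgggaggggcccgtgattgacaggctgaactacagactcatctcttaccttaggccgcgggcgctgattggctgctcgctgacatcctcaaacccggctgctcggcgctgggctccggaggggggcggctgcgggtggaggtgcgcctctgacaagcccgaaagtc
Rspo3: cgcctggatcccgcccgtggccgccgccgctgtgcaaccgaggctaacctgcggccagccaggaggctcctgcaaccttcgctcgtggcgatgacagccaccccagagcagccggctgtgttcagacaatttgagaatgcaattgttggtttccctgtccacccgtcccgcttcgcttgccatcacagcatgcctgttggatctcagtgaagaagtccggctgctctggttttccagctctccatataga
Wnt2b: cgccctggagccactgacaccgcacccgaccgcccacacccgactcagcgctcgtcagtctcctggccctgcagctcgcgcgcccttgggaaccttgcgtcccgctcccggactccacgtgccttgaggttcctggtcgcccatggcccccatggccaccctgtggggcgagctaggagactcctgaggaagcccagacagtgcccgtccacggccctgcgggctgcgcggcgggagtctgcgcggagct
In Axin2 the motifs began at -232 (CTTTGAA) and -132 (CTTTGAT), counted in bases from the start. GC content was 47.6% in the Axin2 window, 68.4% in that of Wnt3, 60.4% in that of Rspo3 and 71.6% in that of Wnt2b. The match is one of letters only, and the windows of the other members were searched in the same way.

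Among the ligands, 13 of 19 were tested, with 3 downregulated, 1 upregulated and 9 not called, and with a median log2-Fold change of -0.07. Wnt3, a ligand of the beta-catenin branch, measured 24.1, 39.1 and 34.8 CPM in the control libraries and 3.59, 7.84 and 5.86 CPM in the IDPN-4wk libraries. The highest IDPN-4wk library was thus well below the lowest control. Its mean went from 32.7 ± 7.69 CPM to 5.76 ± 2.12 CPM (SD, n = 3), a log2-Fold change of -2.48 ± 0.25 (SE; Padj = 0.000119 in edgeR). It was the largest difference of the 47 members in size, and it was called in every alternative fit, with values from -2.78 to -2.25.

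Wnt7a, which is expressed in many epithelia and in the nervous system, measured 37.3, 55.8 and 45.8 CPM in control and 35.7, 21.9 and 29.9 CPM in IDPN-4wk libraries. The groups stood apart by little, since control replicate 1 was just above IDPN-4wk replicate 1. The log2-Fold change was -0.67 ± 0.18 (SE; Padj = 0.0259 in edgeR). The call was lost where TMM gave way to plain library sizes (-0.56), and also when control replicate 2 (-0.51), control replicate 3 (-0.68) or IDPN-4wk replicate 2 (-0.50) was left out. Wnt5b, a ligand mostly linked to the branch without beta-catenin, was low in all libraries, at 5.68, 6.85 and 5.45 CPM in control and 3.52, 2.53 and 3.93 CPM in IDPN-4wk. All 3 IDPN-4wk libraries were below all 3 controls, with a log2-Fold change of -0.86 ± 0.25 (SE; Padj = 0.0349 in edgeR). Its call was lost in 5 of the 6 fits that left out a library, with Padj up to 0.118 in edgeR, and held when IDPN-4wk replicate 3 was left out.

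Wnt2b moved the other way. It measured 49.3, 25.4 and 18.1 CPM in control and 57, 72.6 and 80.3 CPM in IDPN-4wk libraries. The control libraries were spread over a wide range, with replicate 1 near the lowest IDPN-4wk library. The means were 30.9 ± 16.3 and 70.0 ± 11.9 CPM (SD, n = 3), a log2-Fold change of 1.17 ± 0.28 (SE; Padj = 0.0151 in edgeR). Leaving out single libraries moved it from 0.90 to 1.68, and without control replicate 2 it was not called (1.05, Padj = 0.0630 in edgeR).

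Of the 9 ligands that were not called, Wnt5a, a ligand known for its part in planar polarity, had 244, 223 and 243 CPM in control and 238, 213 and 225 CPM in IDPN-4wk libraries. The groups overlapped, and the interval of its log2-Fold change was from -0.23 to 0.09. Wnt7b had 112, 115 and 113 CPM in control and 139.6, 121 and 127 CPM in IDPN-4wk. These groups did not overlap, though the log2-Fold change was small, at 0.19 ± 0.07 (SE; Padj = 0.0906 in edgeR). Wnt4 had the largest log2-Fold change of all members that were not called, at -0.54 ± 0.24 (SE; Padj = 0.145 in edgeR), again without overlap of the groups. Wnt10a, Wnt11, Wnt2 and Wnt9a had at most 3.40 CPM in any library and wide intervals, from -1.53 to 0.47 in Wnt10a and from -1.45 to 1.29 in Wnt2. Both intervals include the log2-Fold change seen in Wnt7a. Wnt16 (0.01) and Wnt6 (0.32) completed the group.

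**Figure D2:**
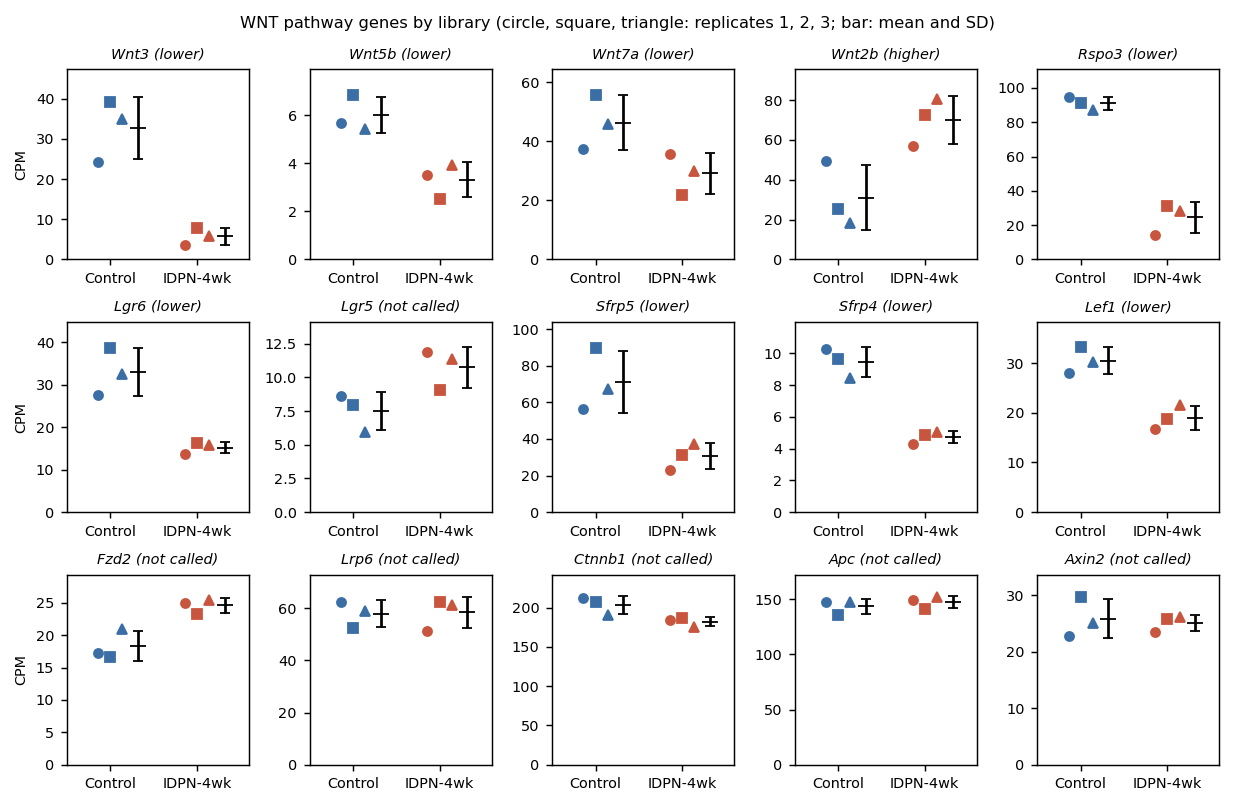
CPM of 15 WNT pathway genes in each of the 3 control and 3 IDPN-4wk libraries, each panel from 0 on its own scale, with the mean and SD beside the points. Wnt3 and Rspo3 show the widest gaps between groups, Wnt7a and Wnt2b narrow ones, and Lrp6, Apc and Axin2 overlap.

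All 4 R-spondins were counted, and 2 of them were tested. Rspo3, which strengthens WNT signals by binding LGR receptors, measured 94.9, 91.1 and 87.3 CPM in control and 14.5, 30.9 and 28.3 CPM in IDPN-4wk libraries. The 3 controls lay close together and IDPN-4wk replicate 1 was the lowest. The mean went from 91.1 ± 3.83 to 24.6 ± 8.85 CPM (SD, n = 3), a log2-Fold change of -1.88 ± 0.21 (SE; Padj = 0.000170 in edgeR) that was called in every alternative fit. Rspo2 overlapped between the groups, with 7.04, 9.02 and 7.57 CPM in control and 8.56, 7.84 and 10.6 CPM in IDPN-4wk (log2-Fold change 0.19, interval from -0.23 to 0.61). Rspo1 was removed by the filter, with 24, 9 and 16 counts in control and 8, 4 and 1 counts in IDPN-4wk libraries. Its groups did not overlap. Rspo1 passed into 6 alternative fits and was called lower in 1 of them, the fit that left out IDPN-4wk replicate 1 (Padj = 0.0398 in edgeR). It was not called with no filter on low counts (Padj = 0.0850 in edgeR) or in DESeq2 (Padj = 0.0862). Rspo4 had 1 count in a single control library.

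Of the 3 receptors of the R-spondins, Lgr6 was called. It measured 27.5, 38.7 and 32.6 CPM in control and 13.7, 16.2 and 15.7 CPM in IDPN-4wk libraries, without overlap and with the IDPN-4wk libraries close together. The mean went from 32.9 ± 5.62 to 15.2 ± 1.31 CPM (SD, n = 3), and the log2-Fold change was -1.11 ± 0.14 (SE; Padj = 0.000433 in edgeR), called in every alternative fit. Lgr5, a marker of WNT-responsive stem and supporting cells in several epithelia, measured 8.65, 7.97 and 5.95 CPM in control and 11.9, 9.03 and 11.4 CPM in IDPN-4wk. All IDPN-4wk libraries were above all controls, but the log2-Fold change of 0.51 ± 0.20 (SE) was not called (Padj = 0.0938 in edgeR). With plain library sizes it was called higher, at 0.62. Lgr4 (0.22, interval from -0.03 to 0.48) and the ligase Rnf43 (0.01, interval from -0.28 to 0.29) overlapped between groups. Whether Lgr6 and Lgr5 differed from each other in their response was not tested.

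Among the secreted antagonists, 7 of 9 were tested and 2 were downregulated. Sfrp5, a soluble Frizzled-like protein that binds WNT ligands, measured 56.2, 89.5 and 67.5 CPM in control and 23.1, 31.5 and 37.1 CPM in IDPN-4wk libraries. No IDPN-4wk library reached the lowest control, and the mean went from 71.1 ± 16.9 to 30.5 ± 7.05 CPM (SD, n = 3). The log2-Fold change was -1.21 ± 0.19 (SE; Padj = 0.00127 in edgeR). Sfrp4, of the same family, measured 10.3, 9.64 and 8.42 CPM in control and 4.31, 4.85 and 5.02 CPM in IDPN-4wk. The libraries of each group lay close together and did not overlap, with a log2-Fold change of -0.996 ± 0.19 (SE; Padj = 0.00427 in edgeR). Both were called in every alternative fit, except that glmTreat, which tests against a fold change of 1.5, did not call Sfrp4.

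The other antagonists were not called. Sfrp1 overlapped between groups, with 70.1, 89.0 and 65.2 CPM in control and 84.8, 80.8 and 81.9 CPM in IDPN-4wk libraries, and Sfrp2 was low, at up to 4.25 CPM. Wif1, which binds WNT ligands directly, measured 15.4, 26.6 and 19.5 CPM in control and 14.7, 14.5 and 15.6 CPM in IDPN-4wk. IDPN-4wk replicate 3 was just above control replicate 1, and the log2-Fold change was -0.45 ± 0.18 (SE; Padj = 0.106 in edgeR). Wif1 was called lower in the fit without control replicate 1. Dkk3, a divergent member of the Dickkopf family, measured 470.4, 583 and 518 CPM in control and 701, 443 and 588 CPM in IDPN-4wk, so that the IDPN-4wk libraries enclosed the controls. Dkk4, an inhibitor of LRP5 and LRP6, had at most 7.40 CPM and a log2-Fold change of 0.07.

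No Frizzled or LRP receptor was called by edgeR or by DESeq2, and 3 (Fzd2, Fzd4 and Lrp5) had an unadjusted p under 0.05 in edgeR. Of the 12 Frizzled and LRP genes, 11 were tested, and their log2-Fold changes were from -0.36 in Lrp5 to 0.42 in Fzd2, with a median of 0.03. Fzd2 measured 17.3, 16.6 and 21.0 CPM in control and 25.0, 23.3 and 25.4 CPM in IDPN-4wk libraries. The groups did not overlap, and the log2-Fold change of 0.42 ± 0.12 (SE; Padj = 0.0368 in edgeR) was below the fold threshold. Lrp6 measured 62.4, 52.3 and 58.7 CPM in control and 51.3, 62.4 and 61.2 CPM in IDPN-4wk. The ranges of the groups were nearly the same, with an interval of the log2-Fold change from -0.21 to 0.24. Lrp5, the companion coreceptor, measured 55.7, 73.9 and 67.6 CPM in control and 48.9, 45.8 and 59.2 CPM in IDPN-4wk. It overlapped through 1 library of each group and was not called (log2-Fold change -0.36 ± 0.12 SE, Padj = 0.0659 in edgeR). Fzd4 was at 0.36 (Padj = 0.108 in edgeR), Fzd5 at 0.40 with no more than 2.06 CPM in a library, and Fzd1, Fzd3, Fzd6, Fzd7, Fzd9 and Fzd10 were between -0.10 and 0.12. The table types Fzd10 as a pseudogene.

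Inside the cell, apart from the nuclear factors, none of the 6 members was called by edgeR or by DESeq2. Of these, 2 (Ctnnb1 and Dvl2) had an unadjusted p under 0.05 in edgeR. Ctnnb1, which encodes beta-catenin, a protein of adherens junctions as well as of WNT signalling, measured 212, 207 and 191 CPM in control and 184, 187 and 175 CPM in IDPN-4wk libraries. The groups did not overlap, but the log2-Fold change was only -0.16 ± 0.07 (SE; Padj = 0.144 in edgeR). Apc, the scaffold of the complex that degrades beta-catenin, measured 148, 136 and 147 CPM in control and 149, 141 and 152 CPM in IDPN-4wk. Its groups overlapped, and the interval of its log2-Fold change was from -0.12 to 0.19. Axin2, a feedback target that is widely read as a gauge of beta-catenin signalling, measured 22.9, 29.7 and 25.1 CPM in control and 23.4, 25.8 and 26.1 CPM in IDPN-4wk. Here too the groups overlapped, with a log2-Fold change of -0.04 ± 0.12 (SE; Padj = 0.846 in edgeR) and an interval from -0.31 to 0.23. Its sign turned positive with plain library sizes (0.07) and when control replicate 2 was left out (0.07). Of the Dishevelled genes, which relay the signal from Frizzled, Dvl1 (-0.02) and Dvl3 (0.07) overlapped and Dvl2 (0.37, Padj = 0.0580 in edgeR) was higher in each IDPN-4wk library than in each control.

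Of the 4 nuclear factors, Lef1 was downregulated. It measured 28.0, 33.3 and 30.2 CPM in control and 16.8, 18.7 and 21.6 CPM in IDPN-4wk libraries, without overlap. The mean went from 30.5 ± 2.67 to 19 ± 2.42 CPM (SD, n = 3), a log2-Fold change of -0.68 ± 0.13 (SE; Padj = 0.00402 in edgeR), which fell under the fold threshold with library size alone (-0.57). Tcf7, which belongs to the same family, measured 10.1, 11.7 and 8.63 CPM in control and 12.0, 13.8 and 14.9 CPM in IDPN-4wk. Its groups did not overlap and its log2-Fold change of 0.41 ± 0.16 (SE) was not called (Padj = 0.103 in edgeR). Tcf7l1 (-0.12, interval from -0.51 to 0.27) and Tcf7l2 (0.15, interval from -0.28 to 0.58) overlapped.

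The 11 members that the filter removed were Wnt1, Wnt3a, Wnt8a, Wnt8b, Wnt9b, Wnt10b, Fzd8, Dkk1, Dkk2, Rspo1 and Rspo4. Wnt8a had no count in any library, which allows up to 3 counts, or from 0.155 to 0.216 CPM depending on the library. Of these 11, 5 had no more than 3 counts in any library, Wnt8a among them. Wnt10b reached 13 and Wnt9b 14 counts, with overlap of the groups. Some members lie next to each other in the RefSeq gene table of build GRCr8: Wnt9b beside Wnt3, Wnt3a beside Wnt9a, Wnt10b beside Wnt1 and Wnt6 beside Wnt10a. Wnt3 was downregulated, whereas its neighbour Wnt9b had 10, 2 and 5 counts in control and 6, 14 and 4 counts in IDPN-4wk libraries.

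Other genes of WNT signalling were read from a list of 88 symbols, of which 85 were in the table and 77 were tested. In this list 4 genes were downregulated, 4 were upregulated and 69 were not called, with a median log2-Fold change of 0.02. Among all genes tested 6.62% were downregulated and 3.09% upregulated, so the share downregulated, 4 of 77, was near that of all genes. Sostdc1, a secreted antagonist of WNT and BMP signals, measured 23.7, 30.3 and 31.8 CPM in control and 74.9, 60.8 and 52.8 CPM in IDPN-4wk libraries. All IDPN-4wk libraries were above all controls, with a log2-Fold change of 1.14 ± 0.14 (SE; Padj = 0.000409 in edgeR). Igfbp4, which binds insulin-like growth factors and can block LRP6, measured 141, 119.5 and 130.2 CPM in control and 257, 185 and 215 CPM in IDPN-4wk. Its groups did not overlap either, and the log2-Fold change was 0.75 ± 0.11 (SE; Padj = 0.00125 in edgeR). Amer1, a membrane scaffold for APC, was upregulated with a log2-Fold change of 0.90 ± 0.17 (SE; Padj = 0.00431 in edgeR), and Dact2, which binds Dishevelled, by 1.06 ± 0.30 (SE; Padj = 0.0319 in edgeR) from a low level. The call of Dact2 was lost in 5 of the 6 fits that left out a library.

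On the polarity side, Celsr1, a core protein of planar cell polarity, measured 173, 185 and 169.5 CPM in control and 103, 98.3 and 127 CPM in IDPN-4wk libraries. The groups did not overlap and the log2-Fold change was -0.68 ± 0.10 (SE; Padj = 0.000794 in edgeR), which was under the fold threshold with library size alone (-0.58). Invs, which encodes inversin, was downregulated with a log2-Fold change of -0.63 ± 0.18 (SE; Padj = 0.0359 in edgeR), and that call was lost in 5 of the 6 fits that left out a library and with plain library sizes (-0.52). Of the 20 planar polarity genes tested, 2 were downregulated, 1 was upregulated (Dact2) and 17 were not called, among them Vangl2 (-0.04) and Scrib (0.31). Among the coreceptors, 1 of 12 was downregulated, Ror2, a receptor for Wnt5a, which measured 7.81, 11.2 and 13.6 CPM in control and 6.76, 5.11 and 6.70 CPM in IDPN-4wk. Its log2-Fold change was -0.81 ± 0.23 (SE; Padj = 0.0303 in edgeR), not called in 4 of the 6 fits that left out a library. A further 3 coreceptors, Ror1, Kremen1 and Lrp4, had a negative log2-Fold change with Padj under 0.05 and a fold change below the threshold, and Gpc3 had the lowest value of the 77 genes (-1.05, Padj = 0.0950 in edgeR).

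The common target and feedback genes of beta-catenin, apart from Axin2, Lef1 and Lgr5 above, were 11, and 10 were tested. Fgf9, a fibroblast growth factor of the developing ear, was downregulated, with 12.7, 16.6 and 13.8 CPM in control and 8.63, 8.67 and 9.46 CPM in IDPN-4wk libraries. The log2-Fold change was -0.68 ± 0.16 (SE; Padj = 0.0120 in edgeR), and the call was lost with plain library sizes (-0.58) and when control replicate 2 was left out (-0.57). The remaining 9 were not called. Nkd1 (0.07, Padj = 0.515 in edgeR), Sp5 (0.11, Padj = 0.610 in edgeR), Myc (0.65, Padj = 0.0953 in edgeR) and Ccnd1 (0.34, Padj = 0.109 in edgeR) all overlapped between groups. None of the 13 nuclear cofactors tested was called by edgeR or by DESeq2, and 5 had an unadjusted p under 0.05 in edgeR. Of the 13, 10 had positive and 3 negative log2-Fold changes. The largest was that of Pygo1 (0.84, Padj = 0.0583 in edgeR), higher in each IDPN-4wk library than in each control. In the degradation complex, Amer1 was the called gene of 14, and Gsk3b was at -0.01 and Csnk1a1 at 0.11.

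**Figure D3:**
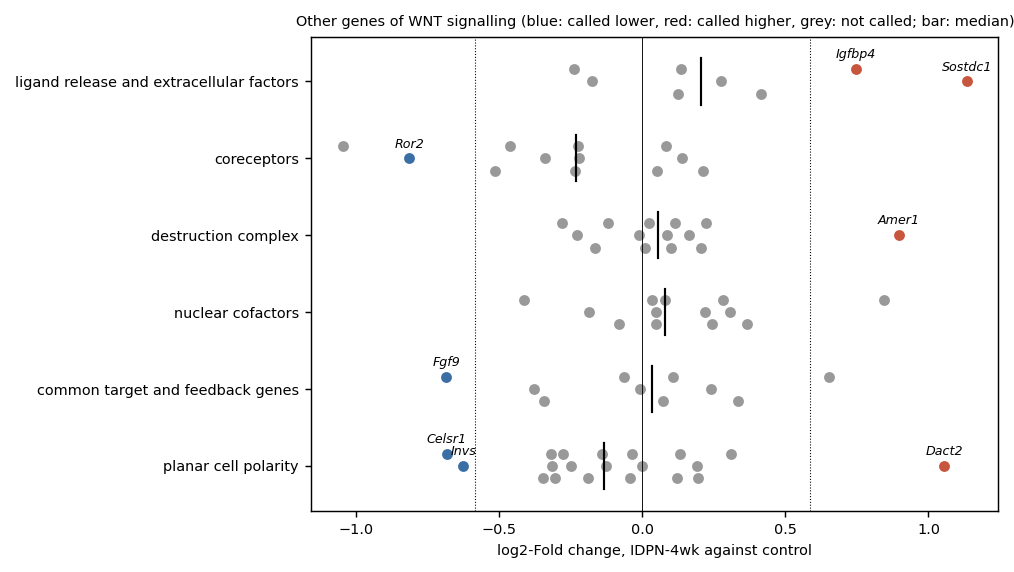
log2-Fold change (IDPN-4wk against control) of 77 further genes of WNT signalling in 6 lists, each point a gene and each bar the median of its list, with dotted lines at a fold change of 1.5. Sostdc1 (1.14), Dact2 (1.06), Amer1 (0.90) and Igfbp4 (0.75) are the called genes on the right, and Ror2 (-0.81), Fgf9 (-0.68), Celsr1 (-0.68) and Invs (-0.63) those on the left.

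Markers of the cell types in the tissue also moved. Of 14 HC markers tested, 8 were downregulated, and their summed level was from 6554 to 7674 CPM in control and from 2344 to 3291 CPM in IDPN-4wk libraries, 38.7% of the control mean. Of 13 supporting cell markers, 5 were downregulated, with summed levels from 10833 to 11915 CPM and from 6100.4 to 7389 CPM, 59.3% of the control mean, and 69.7% without Otog (left out after the values were seen), which made up most of the control sum. Sox9 (0.24), Otol1 (0.35) and Hes1 (0.36) of this list had positive log2-Fold changes that were not called, the first 2 without overlap of the groups. Of 7 markers of dark cells and melanocytes, 2 were downregulated (Kcnq1 and Slc12a2, of the ion transport of dark cells), with sums from 1059 to 1346 CPM and from 740.1 to 809 CPM. Of the other dark cell genes listed, Bsnd (0.06) and Kcne1 (-0.66, Padj = 0.114 in edgeR) overlapped between groups and were not called in edgeR. DESeq2 called Kcne1 lower. Sums of neuronal markers were from 94.4 to 104 CPM in control and from 62.1 to 67.4 CPM in IDPN-4wk, with 2 of the 6 tested downregulated and Nefh upregulated from a low level. Wnt3 and Rspo3, at 17.6% and 27.0% of their control means, stood below all these sums, and Sfrp5, at 43.0%, and Lgr6, at 46.2%, below all but that of the HC markers. In the controls most of the HC sum was Spp1, and without Spp1, a step chosen after the values were seen, the sum in IDPN-4wk was at 57.7% of the control mean, above Sfrp5 and Lgr6. Single markers of several lists were as low as Wnt3 and Rspo3, as a percent of their control means. The HC markers Slc17a8 and Calb2 were at 17.0% and 22.4%, and Kcnq1 of dark cells was at 27.2%. Cd74 of leukocytes was at 15.4% and Acan of cartilage at 23.8%. Which cells expressed the WNT pathway genes was not measured, and the part of cell composition in their differences was not tested.

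Of 8 Schwann cell markers, 1 was downregulated (Pmp22) and 5 had a lower level with Padj under 0.05 in edgeR below the fold threshold, with a median log2-Fold change of -0.49. Their sums were from 8566 to 10779 CPM in control and from 5802 to 8728 CPM in IDPN-4wk libraries and overlapped through 1 library of each group. Markers of stroma (1 of 8 downregulated, Lum, and 2 upregulated, Col1a1 and Dpt), of endothelium (0 of 5 in edgeR and in DESeq2, 1 with an unadjusted p under 0.05) and of macrophages and leukocytes (1 of 10 in each direction, Cd74 lower and C1qb higher) had overlapping sums, in that order from 872 to 1051 and from 834 to 944 CPM, from 327 to 415 and from 321 to 363 CPM, and from 122 to 183 and from 92.3 to 177 CPM. Bone and cartilage markers had sums from 1581 to 1815 CPM and from 1359 to 1841 CPM, with Acan downregulated among 5 tested and the bone genes Ibsp and Bglap at no more than 12 and 3 counts. Of 3 red blood cell genes, Hbb was upregulated, with sums from 95.3 to 113 CPM and from 110.4 to 221 CPM that overlapped. The skeletal muscle list was read through Myh4, the 1 gene of 6 that was tested, at 10.7, 6.71 and 6.44 CPM in control and 40.5, 71.9 and 62.0 CPM in IDPN-4wk, while Ckm and Tnni2 were at 0 in all libraries. The part of these lists in the values of the WNT pathway genes, Wnt2b included, was not tested.

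**Figure D4:**
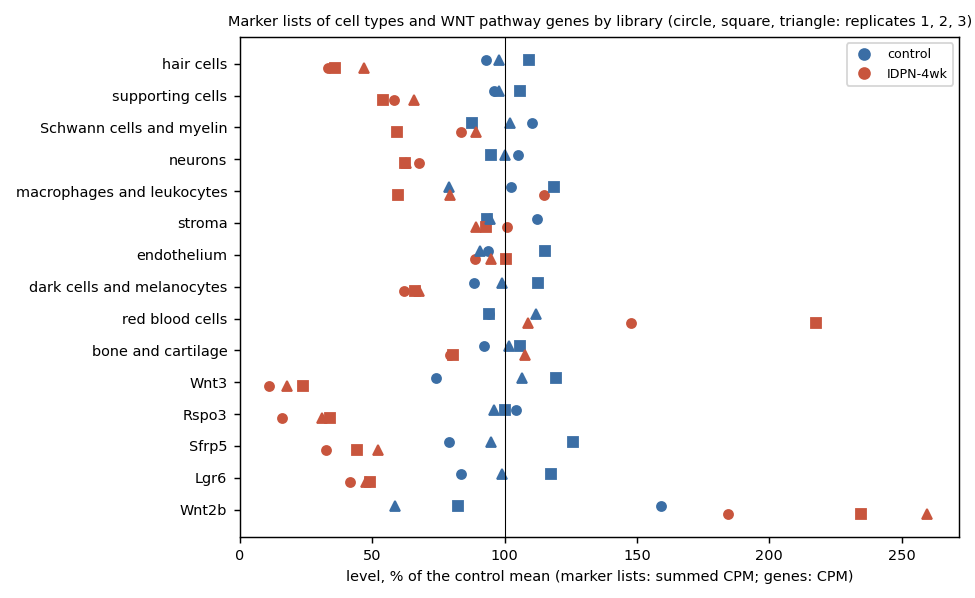
Level in each library as a percent of the control mean, for the summed CPM of 10 marker lists and for the CPM of Wnt3, Rspo3, Sfrp5, Lgr6 and Wnt2b, with control libraries in blue and IDPN-4wk libraries in red. In the IDPN-4wk libraries the HC list and the 4 lower genes lie left of all the other lists, though without Spp1 the HC list would lie at 52.2% to 66.3%, across the range of the supporting cell list, and Wnt2b lies right of its control mean in all IDPN-4wk libraries and in control replicate 1.

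Libraries differed in how far the members moved. Of the 8 downregulated members, 6 had their lowest level in IDPN-4wk replicate 1 and 2 in IDPN-4wk replicate 2. The highest control level was in replicate 2 in 6 of the 8. The HC marker sum was also lowest in IDPN-4wk replicate 1 and highest in control replicate 2. So were the sums of dark cells and melanocytes, of endothelium and of bone and cartilage, so this order was not particular to the HC list. The other marker lists did not show both.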

How the data were processed

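RNA of the vestibular epithelium was sequenced in 3 control and 3 IDPN-4wk rats. The authors reverse transcribed total RNA with an oligo-dT primer (SMART-seq2), which keeps no strand, mapped reads to Rnor6.0 with STAR 2.5.3a and quantified genes with RSEM 1.3.0 (versions from the submitters' processing notes). The deposited values are expected counts, whole numbers as deposited, so that rounding changed none. RSEM splits reads shared by close copies, and opposite-strand neighbours that overlap share their reads. No molecular identifiers were used, so limits from a count of 0 cover counting error only. Depth ranged from 13358678 to 18561991 counts per library.

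Groups came from the treatment label. The labels give 1 batch for all 6 libraries, which leaves no batches to compare within, and no replicate numbers. Replicates were numbered by accession order. The animal codes in the titles have prefixes that differ between the groups; what the prefix marks is not given in the sources used here, and a shared cage or litter could not be told apart from treatment.

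Low genes were removed by filterByExpr (count of at least 10, total of at least 15). After TMM scaling, the groups were compared by the two-sided quasi-likelihood test of edgeR 4.0.16 in R 4.3.3 over all 14352 genes. A gene with Benjamini-Hochberg Padj under 0.05 and a fold change over 1.5 was called. SEs were taken from the quasi F statistic, and intervals are at 95%. The members and gene lists were chosen with earlier results of these data known, so no test was made over a list. All called members, members with Padj under 0.05 below the fold threshold, and Ctnnb1, Apc, Axin2, Lef1, Lgr5 and Lrp6 were named with every library, and the others by role. Members described beyond this rule were chosen after their values were seen. One listed gene, Tnks2, and 1 marker, Hba-a2, each stand on more than 1 row and were left out. Alternatives were other scalings, DESeq2 1.42.0, other filters, Padj alone, glmTreat and leaving out each library. The procedure was tested on simulated data. Promoters came from RefSeq (GRCr8) by symbol, and no Rnor6.0 coordinates were used.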

Additional observations from a re-analysis of the deposited data

How the results depend on the processing

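With glmTreat, which tests against a fold change of 1.5, 4 WNT pathway genes were lower (Wnt3, Rspo3, Lgr6 and Sfrp5) and 0 higher, 0 of the other WNT genes were lower and 1 higher, and 354 of all genes tested were lower and 99 higher. With Padj alone, 2 WNT pathway genes were higher, 8 of the other WNT genes were lower, and 1646 of all genes were lower and 1132 higher. With plain library sizes and no TMM (library size alone), the median of all genes moved from 0.02 to 0.13 (log2), 2 WNT pathway genes were higher (Wnt2b and Lgr5), 1 of the other WNT genes was lower, and 762 of all genes were higher. In this fit 780 of all genes were lower. Leaving out single libraries gave 6 to 8 lower and 0 to 1 higher WNT pathway genes, 2 to 7 lower and 3 to 4 higher of the other WNT genes, and 768 to 1095 lower and 317 to 486 higher of all genes. The 0 came without control replicate 2, where Wnt2b was lost, and the 7 without IDPN-4wk replicate 3. The other WNT genes had 2 lower when control replicate 2 or either of IDPN-4wk replicates 1 and 2 was left out. The other scalings, DESeq2 and the other filters called the same 9 members. The causes were not tested.

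Sign changes were found in members close to 0. Axin2 was at 0.0671 with library size alone, and leaving out libraries gave -0.126 to 0.0670 in Axin2, -0.00114 to 0.0652 in Apc and -0.0546 to 0.0870 in Lrp6. Wnt3, Rspo3, Lgr6, Sfrp5 and Sfrp4 kept their calls in all fits other than glmTreat, which did not call Sfrp4. The median of the tested members stayed between -0.0245 and 0.122. The 11 members removed by the filter had at most 24 counts in a library. No paired analysis was made, because each library came from a different rat and the labels state no pairs. The animal codes in the titles end in letters that recur in both groups, and what they mark is not given in the sources used here.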

Other observations

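Summed over a role group, the R-spondins differed most. Their summed level was from 96.0 to 104 CPM in control and from 23.6 to 39.0 CPM in IDPN-4wk libraries, 33.8% of the control mean, and most of it came from Rspo3. The summed ligands, at 101%, the receptors, at 101%, and the secreted antagonists, at 101% of their control means, overlapped between groups. The R-spondin receptors and ligases, at 91.1%, and the intracellular genes, at 97.9% of their control means, overlapped too. Nuclear factors were at 87.2% of the control mean, from 58.6 to 61.9 CPM in control and from 48.5 to 55.8 CPM in IDPN-4wk, without overlap. These sums count transcripts without regard to length and rest on their most abundant genes, such as Dkk3 among the antagonists and Wnt5a and Wnt7b among the ligands.

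Kremen1, a receptor of DKK proteins, had a log2-Fold change of -0.46 ± 0.09 (SE; Padj = 0.00601 in edgeR), and its mean fell to 72.7% of the control mean. Frzb, another secreted Frizzled-related antagonist, was higher in every IDPN-4wk library, at 167, 162 and 184 CPM, than in the controls, at 142, 144 and 138 CPM (log2-Fold change 0.28 ± 0.07 SE, Padj = 0.0231 in edgeR). Both were below the fold threshold. Dkkl1, a relative of the Dickkopf family, had no count in the control libraries and up to 15 counts in IDPN-4wk libraries, and was removed by the filter. In DESeq2, which used no such filter, it was called higher.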
